A study of Mus musculus with 6 samples.

Results

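Collagen genes of mouse C2C12 cells were compared by class across 2 culture media and 2 treatments. Members were all genes whose single annotated symbol on the array was a collagen chain name, Col followed by a type number, the letter a and a chain number. There were 44 such genes of 22180 genes measured. By the kind of collagen they encode, 11 are fibrillar, 6 are type IV chains of basement membranes, 6 are type VI chains and 21 are other collagens (fibril-associated, network-forming, transmembrane, anchoring and further types).

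Collagens are trimers of chains that are hydroxylated, folded and exported by the secretory pathway and then trimmed and crosslinked outside the cell. Fibrillar collagens form the tensile fibrils of the matrix, type IV collagen forms the sheet on which basement membrane is built, and type VI collagen forms beaded filaments that tie basement membrane to the surrounding matrix. In skeletal muscle, loss of type VI chains causes congenital myopathies, and fibrillar collagen builds up in fibrosis.

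C2C12 is an established mouse myoblast line that fuses into myotubes when serum is withdrawn. All cells were grown in DMEM with 10% FBS (fetal bovine serum), and these cultures are called growth medium here. For the differentiation medium groups, 2% differentiation medium was then added and cells were harvested on day 5. In each medium 1 culture was untreated, 1 received TNF-α, an inflammatory cytokine, at 50 ng/ml, and 1 received BTZ at 10 nM. BTZ is not spelled out in the labels, and the letters commonly stand for the proteasome inhibitor bortezomib. Treatment lasted 24 h in growth medium and ran from day 4 to the harvest on day 5 in differentiation medium.

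Each of the 6 groups had 1 Affymetrix array, so nothing gives an error or a p-value for a difference between 2 arrays, and precision is limited by their number. Levels are deposited log2 signals, and a difference of 1 is 2-fold. Genes reaching 5.06, the median of all values, on at least 1 array were kept. These were 13652 genes and 36 of the 44 collagens, namely 10 fibrillar, 4 type IV, 4 type VI and 18 other. The 8 under that floor were Col11a1, Col4a4, Col4a6, Col6a4, Col6a5, Col10a1, Col15a1 and Col19a1. The nearest of these to the floor were Col4a6 and Col15a1, with highest levels of 4.98 and 5.05, and the nearest members above it were Col4a3, Col14a1 and Col28a1 at 5.13, 5.18 and 5.20. Only an additive limma fit over the 6 arrays (medium plus treatment, 2 residual degrees of freedom) gave p-values. The labels name no separate cultures behind replicates, so these measure only the spread between the arrays, and a treatment effect that differs between media adds to the residual. RNA was from whole cultures, so fewer cells of a type and less RNA per cell cannot be told apart.

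The upstream sequences of 5 collagens are printed because these genes carry the treatment pattern described next: Col1a2, Col3a1, Col6a1 and Col8a1 were lower with BTZ in both media, and Col5a3 was the collagen with the highest TNF-α difference. Each is the 250 bases before the annotated start in RefSeq, build GRCm38.p6, written 5′ to 3′ on the gene's strand: Col1a2 at chr6:4505368-4505617 (plus strand), Col3a1 at chr1:45311288-45311537 (plus), Col6a1 at chr10:76726045-76726294 (minus), Col8a1 at chr16:57754738-57754987 (minus) and Col5a3 at chr9:20815068-20815317 (minus). Capitals mark matches to the motif CCAAT, to the TATA box letters TATAAA and to the GC box letters GGGCGG. Both strands were searched, so that the last may read CCGCCC, and no matches overlap here.
Col1a2: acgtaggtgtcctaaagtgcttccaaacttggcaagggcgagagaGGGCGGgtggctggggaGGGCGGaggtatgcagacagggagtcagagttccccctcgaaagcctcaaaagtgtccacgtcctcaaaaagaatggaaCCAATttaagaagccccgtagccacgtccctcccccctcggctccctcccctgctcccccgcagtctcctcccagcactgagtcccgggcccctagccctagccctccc
Col3a1: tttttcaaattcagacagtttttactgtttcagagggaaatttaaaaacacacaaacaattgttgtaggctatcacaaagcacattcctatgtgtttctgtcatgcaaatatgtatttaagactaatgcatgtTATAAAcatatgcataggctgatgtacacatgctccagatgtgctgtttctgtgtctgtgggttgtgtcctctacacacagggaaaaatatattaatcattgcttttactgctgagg
Col6a1: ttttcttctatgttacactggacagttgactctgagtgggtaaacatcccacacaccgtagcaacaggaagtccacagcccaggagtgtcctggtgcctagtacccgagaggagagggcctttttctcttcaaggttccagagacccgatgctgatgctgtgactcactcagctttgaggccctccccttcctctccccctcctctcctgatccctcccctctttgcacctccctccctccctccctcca
Col8a1: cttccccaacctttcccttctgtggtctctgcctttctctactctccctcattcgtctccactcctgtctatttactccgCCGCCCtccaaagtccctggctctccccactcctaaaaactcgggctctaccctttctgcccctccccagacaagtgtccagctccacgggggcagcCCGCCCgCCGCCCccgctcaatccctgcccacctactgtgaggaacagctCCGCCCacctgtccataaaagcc
Col5a3: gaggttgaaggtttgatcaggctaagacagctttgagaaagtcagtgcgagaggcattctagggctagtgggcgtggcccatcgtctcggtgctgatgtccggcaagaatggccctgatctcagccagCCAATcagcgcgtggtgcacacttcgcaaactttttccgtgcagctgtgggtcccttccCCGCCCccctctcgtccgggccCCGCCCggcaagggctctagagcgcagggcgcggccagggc
Col1a2 and Col5a3 each hold 1 CCAAT and 2 GGGCGG matches, and motif content was not tested against the treatment differences. Col3a1 holds 1 TATAAA match, Col8a1 holds 4 GGGCGG matches, and Col6a1 holds none of the 3 motifs. Of the 44 collagens, 35 had an upstream window in the table, 38 windows in all. The CCAAT motif was in 34.2% of these against 33.8% of all 32851 windows, the TATA box letters in 13.2% against 12.4%, and the GC box letters in 57.9% against 32.7%. A match is a stretch of letters and was not tied to binding of any factor.

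With BTZ, the main interstitial collagens were lower in both media. In growth medium 9 of the 36 collagens were at least 2-fold lower and 0 at least 2-fold higher, where 6.16% of all genes were lower and 4.99% higher. In differentiation medium 8 were lower and 0 higher, beside 8.91% and 6.05% of all genes. The same 8 collagens were lower in both media (Col1a1, Col1a2, Col3a1, Col5a2, Col6a1, Col6a2, Col8a1 and Col12a1), as were 478 of the 13652 genes. By class, the counts in growth and differentiation medium were 4 and 4 of 10 fibrillar, 0 and 0 of 4 type IV, 3 and 2 of 4 type VI, and 2 and 2 of 18 other collagens. The median difference over the 36 collagens was only -0.28 in growth and -0.27 in differentiation medium, against 0.02 and 0.00 over all genes. Class medians in growth and differentiation medium were -0.66 and -0.39 for fibrillar, -0.35 and -0.33 for type IV, -1.36 and -1.19 for type VI, and -0.12 and -0.24 for other collagens. With all 6 type VI genes, the 2 under the floor included, the type VI medians were -0.74 and -0.16. In differentiation medium the medians over all measured genes were -0.28 for fibrillar, -0.17 for type IV and -0.20 for other collagens. Type VI was then no longer the lowest class there.

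The large differences lay in collagens with high signal on some array. The 15 that reached 6.92, the 75th percentile of all values, on some array held every collagen past 2-fold in any comparison. Col1a2 (BTZ levels of 5.90 and 6.70) and Col8a1 (5.21 and 6.90) reached it only without BTZ. Choosing by the highest array thus favours a fall with BTZ. The median BTZ difference of the 15 was -1.58 in growth and -1.82 in differentiation medium. All genes chosen in the same way had 0.07 in both media. Among all those genes 9.17% and 12.1% were at least 2-fold lower. The other collagens above the floor had differences between -0.89 (Col8a2, TNF-α in growth medium) and 0.87 (Col28a1, BTZ in growth medium), and a level near background compresses a difference.

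In the additive limma fit, 8 collagens fell with BTZ at a Benjamini-Hochberg adjusted p under 0.05, beside 6.85% of all genes that fell, and 0 collagens rose, beside 7.31% of all genes. They were the same 8: 4 fibrillar, 2 type VI and 2 other. At an unadjusted p under 0.05 there were 10, adding Col5a1 (effect -0.65, adjusted p = 0.0621) and Col4a1 (-0.68, adjusted p = 0.107, limma). Of all 13652 genes, 4340 had an unadjusted BTZ p under 0.05, so 10 of 36 is no larger a share. Without the untreated array of growth medium, or that of differentiation medium, the fit called 0 collagens and 0 genes of any kind, and adjusted p for the 8 then ran from 0.0981 to 0.283. Without either TNF-α array it called the same 8. The BTZ effects of those runs are fixed to those of the full fit, since they rest on the same untreated and BTZ arrays. Only the residual could differ. With a BTZ array left out, the BTZ effect rests on the other BTZ array alone. Its p-value then holds no spread between BTZ arrays.

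**Figure D1:**
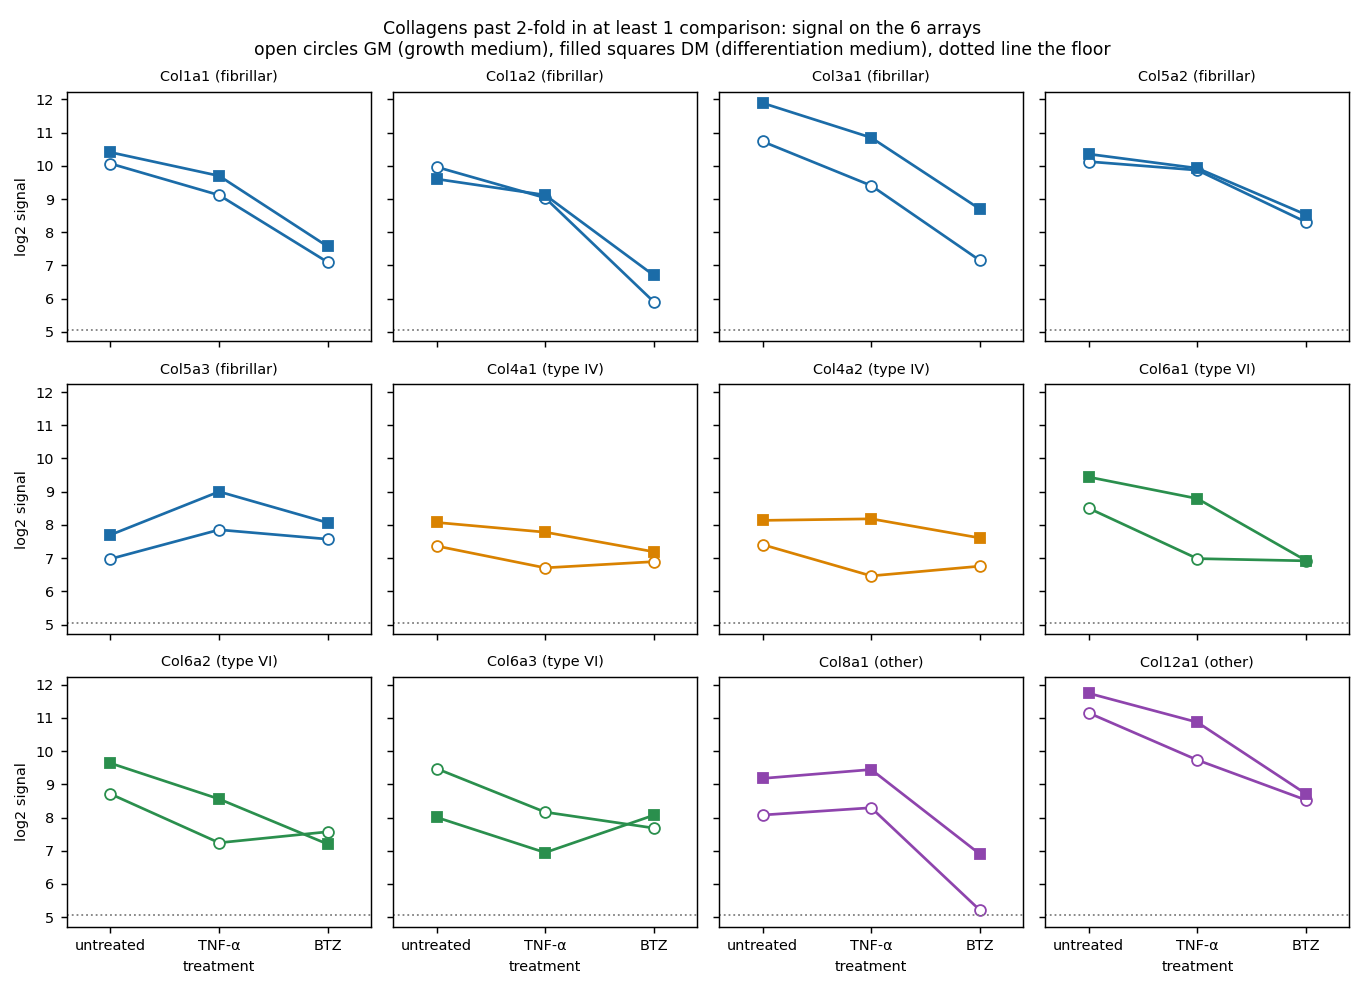
Log2 signal (vertical axis) of the collagens past 2-fold in at least 1 comparison, on the untreated, TNF-α and BTZ arrays (horizontal axis), 1 panel per gene. Open circles are growth medium, filled squares are differentiation medium, each point is 1 array, and the dotted line is the floor of 5.06. Col1a1, Col1a2, Col3a1, Col5a2, Col8a1 and Col12a1 are lowest with BTZ in both media, and Col5a3 is highest with TNF-α.

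Among fibrillar collagens, type I collagen, the main collagen of tendon, bone and the interstitial matrix of muscle, is made of the Col1a1 and Col1a2 chains. Col1a1 had levels of 10.07, 9.12 and 7.10 on the untreated, TNF-α and BTZ arrays in growth medium and 10.41, 9.70 and 7.57 in differentiation medium. Its BTZ array was lowest in each medium, 7.83-fold and 7.14-fold under the untreated one, and the fit gave an effect of -2.90 ± 0.16 (SE, adjusted p = 0.00651, limma). Col1a2 had levels of 9.97, 9.03 and 5.90 in growth medium and 9.60, 9.12 and 6.70 in differentiation medium. Both of its BTZ arrays lay far under the other 4, by 16.7-fold and 7.46-fold against untreated, with a fitted effect of -3.48 ± 0.29 (adjusted p = 0.00929, limma). The BTZ difference of Col1a1 minus that of Col1a2 was 1.09 log2 units in growth medium and 0.06 in differentiation medium, with no replicate to set it against. Col1a2 was measured by 2 probe sets, with BTZ differences of -3.82 and -4.30 in growth medium. The dimmer of them was under the floor there, at 4.58.

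Col3a1, the single chain of type III collagen, which is laid down with type I in soft tissue and early scars, had levels of 10.73, 9.40 and 7.15 in growth medium and 11.89, 10.85 and 8.70 in differentiation medium. Each medium thus ran from high in untreated cells through TNF-α to low with BTZ, and each differentiation array lay above its growth counterpart. Its BTZ differences were -3.58 in growth and -3.19 in differentiation medium, the latter 9.14-fold (fitted effect -3.39 ± 0.17, adjusted p = 0.00651, limma).

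Type V collagen chains, minor parts of type I fibrils that help start them and set their width, did not move alike. Col5a2 had levels of 10.13, 9.87 and 8.31 in growth medium and 10.35, 9.93 and 8.53 in differentiation medium. It was low on the BTZ arrays alone, 3.53-fold and 3.54-fold under untreated (fitted effect -1.82 ± 0.15, adjusted p = 0.00929, limma). Col5a1 had levels of 7.69, 7.15 and 6.89 in growth medium and 8.06, 7.56 and 7.55 in differentiation medium. As the mean of 2 probe sets it stayed within 2-fold in all 7 comparisons, but the probe sets disagreed. The brighter, with levels from 7.96 to 9.76, had differences of -1.50 with BTZ in growth medium and 1.16 between media with BTZ. The dimmer, with levels from 5.43 to 6.36, had -0.08 and 0.15. Col5a3 had levels of 6.98, 7.85 and 7.57 in growth medium and 7.70, 9.0 and 8.07 in differentiation medium, with untreated lowest and TNF-α highest in each. The BTZ difference of Col5a2 minus that of Col5a3 was -2.41 log2 units in growth medium and -2.19 in differentiation medium. Col3a1 and Col5a2 are neighbours on mouse chromosome 1, and their BTZ differences were -3.58 and -1.82 in growth medium and -3.19 and -1.82 in differentiation medium. The other fibrillar members above the floor, Col2a1, Col11a2, Col24a1 and Col27a1, had levels between 5.08 and 6.06 and differences between -0.58 and 0.36.

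Of the 4 type IV chains above the floor, 0 passed 2-fold with either treatment. The shares of all genes at least 2-fold lower in growth and differentiation medium were 1.02% and 0.879% with TNF-α. With BTZ they were 6.16% and 8.91%, so 0 of 4 does not set the class apart from all genes. Col4a1 and Col4a2, neighbours on chromosome 8 that are transcribed away from each other, encode the common chains of all basement membranes. Col4a1 had levels of 7.36, 6.71 and 6.89 in growth medium and 8.07, 7.78 and 7.19 in differentiation medium. Col4a2 had levels of 7.41, 6.46 and 6.76 in growth medium and 8.14, 8.18 and 7.61 in differentiation medium. Every array of either gene in differentiation medium lay above the one with the same treatment in growth medium. The BTZ differences were -0.47 and -0.65 in growth medium and -0.88 and -0.53 in differentiation medium for Col4a1 and Col4a2. Col4a5, a chain of specialised basement membranes, had levels of 5.66, 5.28 and 5.44 in growth medium and 5.56, 5.55 and 5.43 in differentiation medium. Col4a3, a chain of kidney and lung basement membrane, had levels of 5.03, 4.97 and 5.01 and of 4.99, 5.13 and 4.96, and only its TNF-α array in differentiation medium reached the floor. Neither of these minor chains passed 2-fold anywhere.

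Type VI collagen is assembled from the Col6a1 and Col6a2 chains with another long chain, usually that of Col6a3. Col6a1 had levels of 8.50, 6.98 and 6.92 in growth medium and 9.44, 8.79 and 6.93 in differentiation medium. Col6a2 had levels of 8.71, 7.24 and 7.57 in growth medium and 9.64, 8.56 and 7.20 in differentiation medium. For both chains the untreated array was the highest in each medium. The BTZ differences in growth and differentiation medium were -1.58 and -2.51 for Col6a1 and -1.14 and -2.44 for Col6a2, which is 5.71-fold and 5.42-fold lower in differentiation medium. The fitted BTZ effects were -2.05 ± 0.41 (adjusted p = 0.0306) for Col6a1 and -1.79 ± 0.40 (adjusted p = 0.0408) for Col6a2 in limma.

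Col6a3 differed from its partners in the differentiated cultures. Its levels were 9.48, 8.16 and 7.68 in growth medium and 8.01, 6.95 and 8.07 in differentiation medium. In growth medium BTZ was the lowest array, 3.46-fold under untreated. In differentiation medium the BTZ array was level with the untreated one, a difference of 0.06 against -2.51 for Col6a1 and -2.44 for Col6a2. Col6a3 was also the one collagen past 2-fold that was lower in untreated differentiation than in untreated growth medium. Col6a1 and Col6a2 are neighbours on chromosome 10, and Col6a3 lies elsewhere. Col6a6, an alternative to the Col6a3 chain, had levels of 5.87, 5.61 and 5.52 in growth medium and 5.56, 5.32 and 5.76 in differentiation medium, within 2-fold throughout.

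Among the other collagens, the large treatment differences lay in Col8a1 and Col12a1. Col8a1, a short network-forming chain of vessel walls and the corneal basement membrane, had levels of 8.08, 8.30 and 5.21 in growth medium and 9.18, 9.45 and 6.90 in differentiation medium. It was low with BTZ alone, 7.29-fold and 4.85-fold under untreated (fitted effect -2.57 ± 0.21, adjusted p = 0.00929, limma), while its TNF-α differences were 0.22 and 0.27. Col8a2, which encodes the other type VIII chain, had levels of 5.66, 4.77 and 5.18 in growth medium and 5.81, 5.34 and 5.43 in differentiation medium, with BTZ differences of -0.48 and -0.38. Col12a1, a fibril-associated collagen that decorates type I fibrils, had levels of 11.15, 9.73 and 8.53 in growth medium and 11.74, 10.87 and 8.71 in differentiation medium. Its levels stepped down from untreated through TNF-α to BTZ in both media, and with BTZ it was 6.16-fold and 8.16-fold lower (fitted effect -2.83 ± 0.24, adjusted p = 0.00933, limma).

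The remaining other collagens with the widest ranges stayed within 2-fold in every comparison. Col23a1, a transmembrane collagen, had levels of 6.49, 6.31 and 6.37 in growth medium and 7.09, 6.62 and 6.61 in differentiation medium, highest in the untreated differentiation culture. Col14a1, a fibril-associated collagen, had levels of 4.70, 4.47 and 4.36 in growth medium and 4.74, 5.18 and 4.26 in differentiation medium. Col28a1, a minor collagen with von Willebrand factor A domains, had levels of 4.33, 4.75 and 5.20 in growth medium and 4.69, 4.84 and 4.59 in differentiation medium. Each of the last 2 reached the floor on 1 array only.

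**Figure D2:**
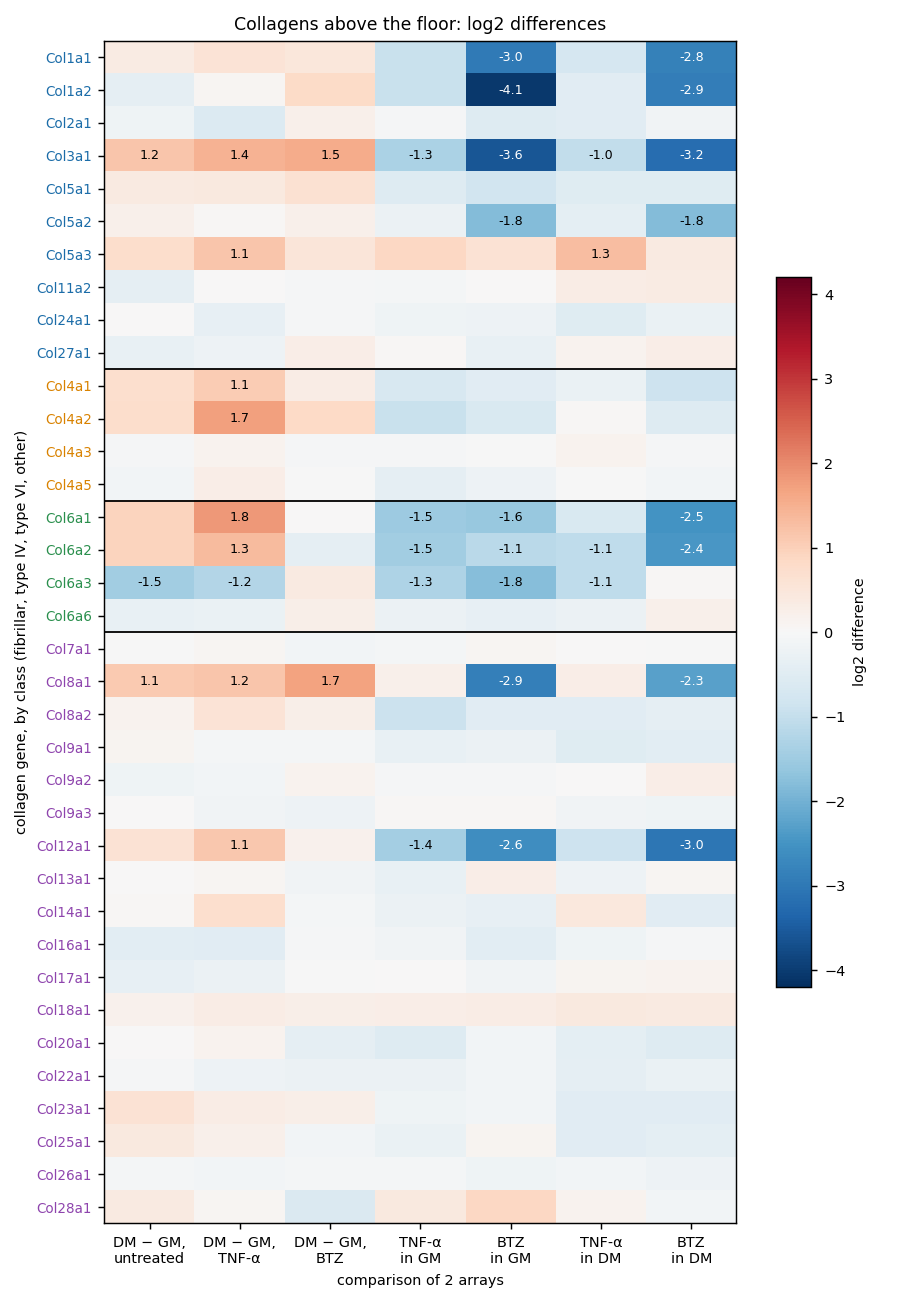
Log2 differences (colour, blue lower and red higher) of the 36 collagens above the floor (vertical axis, by class) in the 7 comparisons of 2 arrays (horizontal axis), with no replicates. The darkest blue cells lie in the BTZ columns, down to -4.06 for Col1a2 in growth medium, and the lowest value outside them is -1.52 for Col6a1 with TNF-α in growth medium.

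TNF-α took fewer collagens past 2-fold than BTZ, and its lowest class median was that of type VI. In growth medium the type VI median was near that with BTZ, -1.39 against -1.36. The type IV median there was lower with TNF-α, -0.52 against -0.35. In growth medium 5 collagens were at least 2-fold lower (Col3a1, Col6a1, Col6a2, Col6a3 and Col12a1) and 0 were at least 2-fold higher, where 1.02% of all genes were lower and 0.982% higher. In differentiation medium 3 were lower (Col3a1, Col6a2 and Col6a3) and 1 higher (Col5a3), where 0.879% of all genes were lower and 2.01% higher. The 3 lower in differentiation medium were lower in growth medium too, as were 39 of the 13652 genes. The median over the collagens was -0.25 in growth and -0.26 in differentiation medium, against 0.03 and 0.01 over all genes. Among the 15 collagens with high signal, chosen by their highest array, it was -0.93 and -0.48. All genes chosen in the same way had medians of 0.10 and 0.04, and 1.39% and 0.923% of them were at least 2-fold lower.

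By class, the TNF-α medians in growth and differentiation medium were -1.39 and -0.86 for type VI, -0.22 and -0.48 for fibrillar, -0.52 and 0.02 for type IV, and -0.16 and -0.17 for other collagens. With all 6 type VI genes they were -0.79 and -0.62. Col6a1, Col6a2 and Col6a3 were 2.86-fold, 2.77-fold and 2.48-fold lower in growth medium. In differentiation medium Col6a2 and Col6a3 were 2.11-fold and 2.09-fold lower, and the Col6a1 difference was -0.65. Col3a1 was 2.51-fold and 2.06-fold lower in the respective media, and Col12a1 2.67-fold lower in growth medium with a difference of -0.87 in differentiation medium. Col1a1 and Col1a2 had like TNF-α differences in growth medium, -0.95 and -0.93. Those of Col4a1 and Col4a2 were -0.66 and -0.94 in growth medium and -0.29 and 0.05 in differentiation medium. With TNF-α 23 of the 36 collagens had differences below 0 in both media, 6 above 0 in both and 7 of opposite sign. Of all 13652 genes, 3917 were below 0 in both, 4582 above 0 in both and 5142 of opposite sign. Col5a3 had the highest TNF-α differences of the collagens, 0.88 in growth and 1.30 in differentiation medium, 2.47-fold higher in the latter.

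The TNF-α and BTZ comparisons of a medium share its untreated array. Side by side in growth medium, TNF-α and BTZ differences were -1.52 and -1.58 for Col6a1, -1.47 and -1.14 for Col6a2 and -1.31 and -1.79 for Col6a3. For Col8a1 they were 0.22 and -2.86, and for Col5a2 -0.26 and -1.82.

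In the limma fit 0 collagens were called for TNF-α, beside 0.0806% of all genes called higher and 0.0146% called lower at a Benjamini-Hochberg adjusted p under 0.05. At an unadjusted p under 0.05 there were 9 of 36, beside 896 of all 13652 genes. Among the 9 were Col3a1 (effect -1.19, adjusted p = 0.147, limma) and Col5a3 (effect 1.09, adjusted p = 0.336, limma). Without the BTZ array of growth medium, or that of differentiation medium, the fit called 6: Col1a1, Col3a1, Col6a2, Col6a3 and Col12a1 lower and Col5a3 higher, beside 1.64% and 1.55% of all genes called in either direction. The TNF-α effects are the same in both of those runs, which rest on the untreated and TNF-α arrays alone. The runs are therefore not separate checks.

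**Figure D3:**
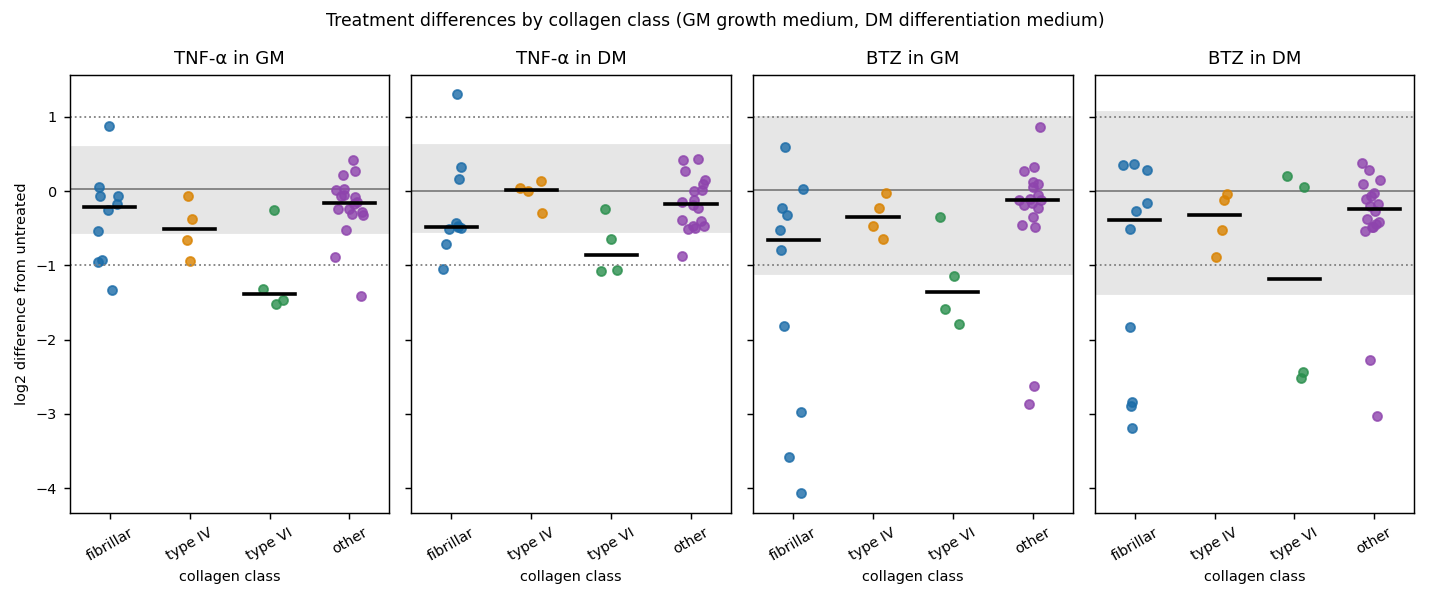
Log2 difference from untreated (vertical axis) of the collagens above the floor, by class (horizontal axis), for TNF-α and BTZ in growth (GM) and differentiation medium (DM). Each point is 1 gene, the thick bar is the class median, dotted lines mark 2-fold, and the grey band runs from percentile 5 to percentile 95 of all genes with their median as a thin line. Type VI has the lowest median in all 4 panels, from -0.86 to -1.39, on 4 genes. With BTZ in DM these genes lie at -2.51, -2.44, 0.06 and 0.20, with none near their median of -1.19.

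**Figure D4:**
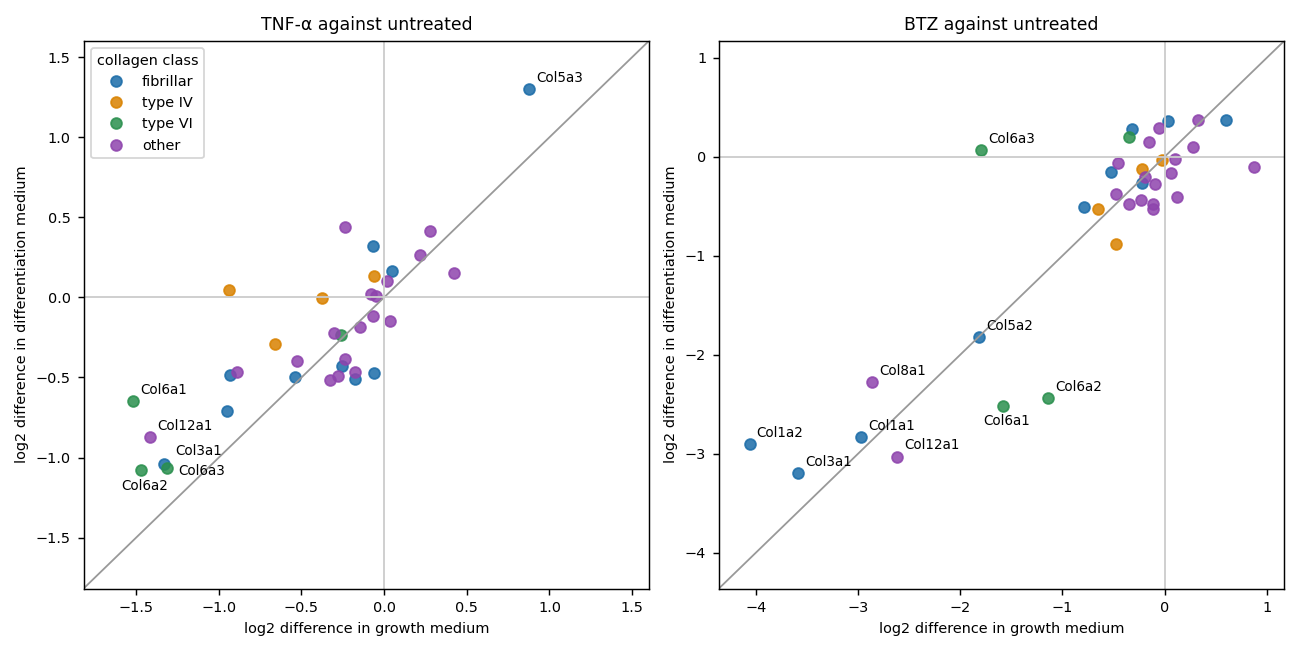
Log2 difference of each collagen in growth medium (horizontal axis) against that in differentiation medium (vertical axis), for TNF-α (left) and BTZ (right), coloured by class, with equal values on the diagonal. Col6a3 lies apart in the BTZ panel at -1.79 and 0.06, and Col5a3 at the upper right of the TNF-α panel at 0.88 and 1.30.

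Between media, untreated collagens differed little as a family. Going from growth to differentiation medium in untreated cells, 2 of 36 were at least 2-fold higher and 1 at least 2-fold lower, near or under the shares of all genes, 4.83% and 3.92%. Col3a1 was 2.23-fold and Col8a1 2.15-fold higher, and Col6a3 was 2.76-fold lower. The median over collagens was 0.03, against 0.01 over all genes. Col6a1 and Col6a2, the partners of Col6a3, had differences of 0.94 and 0.93, and Col1a1 and Col1a2 had 0.34 and -0.36.

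With TNF-α in both media, differentiation medium had 8 collagens at least 2-fold higher and 1, Col6a3, lower, where 5.85% of all genes were higher and 4.85% lower. The 8 were Col3a1, Col5a3, Col4a1, Col4a2, Col6a1, Col6a2, Col8a1 and Col12a1. The greatest of these differences were 1.81 for Col6a1 and 1.72 for Col4a2, both of which were lower with TNF-α than untreated in growth medium. With BTZ in both media, 2 were higher, Col3a1 and Col8a1, and 0 were lower, where 1.54% of all genes were higher and 2.13% lower. In the limma fit Col3a1 was higher in differentiation medium by 1.38 ± 0.14 (SE, adjusted p = 0.00859) and Col8a1 by 1.31 ± 0.17 (adjusted p = 0.0208). These were the only collagens called, beside 1.56% of all genes called higher and 2.47% called lower. Both calls were lost without either untreated array or either TNF-α array. Without either BTZ array 10 collagens were called, Col6a3 lower and the other 9 higher, beside 23.9% of all genes called in either direction. The medium effects are the same in both runs without a BTZ array, which rest on the untreated and TNF-α arrays alone.

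Genes that make collagen differed in both directions with BTZ. Of 18 genes of hydroxylation, folding and export above the floor, 6 fell and 3 rose with BTZ in the limma fit at an adjusted p under 0.05, beside 6.85% and 7.31% of all genes. Among prolyl 4-hydroxylase subunits, which stabilise the triple helix, P4ha3 fell (effect -2.35 ± 0.23, adjusted p = 0.0105) and P4ha2 rose (1.22 ± 0.23, adjusted p = 0.0268, limma). P4ha3 had levels of 9.45, 8.58 and 6.74 in growth medium and 7.53, 7.22 and 5.54 in differentiation medium, and P4ha2 had 7.32, 7.41 and 8.47 and then 7.36, 8.17 and 8.66. The other genes that fell were P3h4, Colgalt1, P4hb, Crtap and Ppib, and the others that rose were P3h1, a prolyl 3-hydroxylase, and Mia3, an export factor for bulky cargo. Creb3l1, a membrane-bound transcription factor that activates type I collagen genes, had BTZ differences of -2.66 in growth and -0.71 in differentiation medium and was not called. Serpinh1, the collagen chaperone Hsp47, had -0.65 and 0.60. With TNF-α, 0 of the 18 passed 2-fold in either medium, near the shares of all genes. Those were 0.982% higher and 1.02% lower in growth medium and 2.01% and 0.879% in differentiation medium.

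Of 9 genes of procollagen processing and crosslinking, 4 fell with BTZ and 0 rose in the limma fit, beside the same 6.85% and 7.31% of all genes. They were Pcolce, the enhancer of C-propeptide removal (effect -3.30 ± 0.29, adjusted p = 0.00939), and the crosslinking oxidases Lox (-2.07 ± 0.39, adjusted p = 0.0273), Loxl1 (-1.48) and Loxl3 (-1.26). Pcolce had levels of 10.13, 9.81 and 7.17 in growth medium and 10.00, 10.16 and 6.37 in differentiation medium, low on the BTZ arrays alone. Its relative Pcolce2 had BTZ differences of 0.31 and 1.70.

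Of 14 matrix proteins that bind collagen, 10 fell with BTZ and 0 rose in the limma fit, where 6.85% of all genes fell and 7.31% rose. Where 4676 of all 13652 genes had BTZ differences below 0 in both media, all 14 of these did. Their median was -1.59 in growth and -2.22 in differentiation medium, against 0.02 and 0.00 over all genes. Thbs1 (effect -3.34 ± 0.13, adjusted p = 0.00526, limma), Postn (-2.77), Aspn (-3.72), Ogn (-3.54) and Dcn (-3.18), matricellular proteins or small leucine-rich proteoglycans, were among those that fell. The BTZ arrays of Aspn, at 4.04 and 4.05, and the BTZ array of Dcn in growth medium, at 4.97, were under the floor, so background enters these effects. Omd, a small leucine-rich proteoglycan, also fell with TNF-α (effect -3.34 ± 0.20, adjusted p = 0.0399, limma), where no collagen was called. It had levels of 7.37, 4.27 and 3.75 in growth medium and 7.11, 3.52 and 3.27 in differentiation medium, so its treated arrays were all under the floor. Omd and Aspn reached the floor on their untreated arrays alone. Both were thus kept only through the arrays where they were high, which favours a fall with treatment.

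Of 11 other basement membrane proteins, 3 fell with BTZ (Nid2, Hspg2 and Lama2) and 1 rose (Nid1) in the limma fit, beside 6.85% and 7.31% of all genes. Nid1 and Nid2, which link laminin to type IV collagen, had opposite effects of 1.91 ± 0.34 (adjusted p = 0.0252) and -3.21 ± 0.60 (adjusted p = 0.0273, limma). Of 9 collagen receptors 2 fell, Antxr1 (-1.73) and Itga1 (-1.08, with its BTZ arrays under the floor at 4.37 and 4.58), and 0 rose, beside the same shares of all genes. Ddr2, a receptor kinase for fibrillar collagen, had BTZ differences of 0.56 and 1.67. Of 13 genes of breakdown and its inhibitors, 3 fell with BTZ (Mmp14, Mrc2 and Timp2) and 1 rose (Mmp19), a share of rises near that of all genes. The collagenase Mmp13 had TNF-α levels of 6.50 and 5.69 in growth and differentiation medium against untreated levels of 3.87 and 4.14, which were under the floor, and the gelatinase Mmp9 had TNF-α differences of 1.04 and 2.08, neither called in the fit. The BTZ calls of these gene lists come from the same fit, in which 0 genes were called without either untreated array. The lists were chosen with earlier results of these data known, so their counts are not independent of those results.

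**Figure D5:**
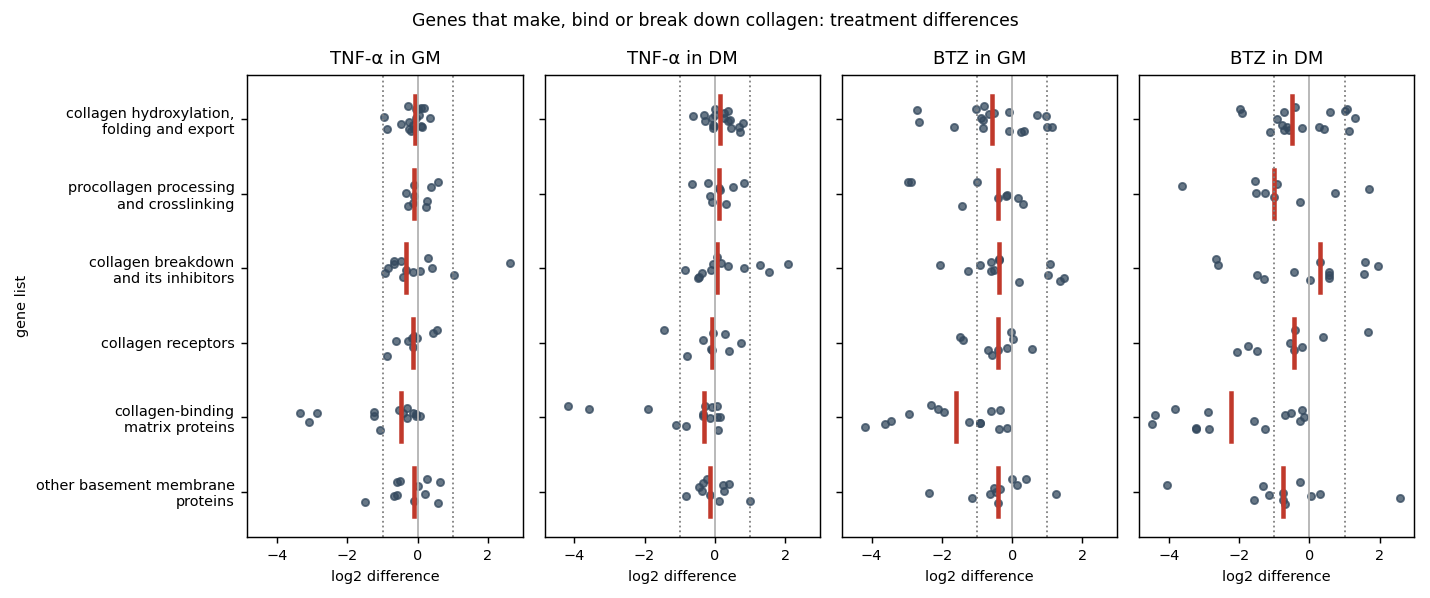
Log2 differences (horizontal axis) of 6 gene lists around collagen (vertical axis), 1 panel each for TNF-α and BTZ in growth (GM) and differentiation medium (DM). Each point is 1 gene above the floor, the red bar is the list median, and dotted lines mark 2-fold. Collagen-binding matrix proteins have BTZ medians of -1.59 and -2.22, and the lists for hydroxylation and breakdown have genes on both sides of 0.

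Cell identity was read from marker lists on the same arrays. All 5 myoblast and all 6 myotube markers were above the floor, and the summed linear signal of the myotube markers was 422.3 in untreated growth medium and 17014.5 in untreated differentiation medium. It was 13636.9 with TNF-α and 5597.7 with BTZ in differentiation medium, so myotube transcripts were lower with BTZ there beside the lower collagens. On the 3 growth medium arrays the myotube sum lay between 273.5 and 422.3. Where 4676 of all 13652 genes had BTZ differences below 0 in both media, all 5 myoblast markers did. Their medians were -1.13 in growth and -1.12 in differentiation medium. The sum of the myoblast markers was 2895.9, 2089.1 and 1300.3 on the untreated, TNF-α and BTZ arrays in growth medium and 5465.5, 4179.2 and 2180.6 in differentiation medium. Des was the brightest of these markers on every array and weighed most in the sums. Between untreated cultures 4 of the 5 were higher in differentiation medium and Myf5 was lower (-0.91), so the sum does not count myoblasts. The part of these muscle transcripts in the collagen differences was not tested. Of 5 fibroblast markers 4 were above the floor, with Tcf21 under it, and their sum ran 2265.0, 1217.9 and 847.4 in growth medium and 2821.0, 2402.3 and 485.8 in differentiation medium. Pdgfrb was the brightest of them on the untreated and TNF-α arrays and weighed most in those sums. Its levels were 10.85, 9.77 and 7.94 and then 11.27, 10.92 and 7.55. BTZ differences in growth and differentiation medium were 0.63 and -0.06 for Pdgfra and 0.12 and 0.55 for Thy1. Those of Dpt were -0.26 and -1.62, with its BTZ arrays under the floor. The fibroblast markers thus did not move alike, and the part of cells expressing them in the result was not tested. All 4 endothelial markers were under the floor, as were 2 of 4 macrophage, 2 of 3 adipocyte and 3 of 4 chondrocyte markers.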

How the data were processed

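RNA of 6 C2C12 cultures, 1 per group, was measured on Affymetrix whole-transcript arrays. The values the authors deposited, 1 for each probe set on each array, were read as log2 signals, since they range from 1.66 to 14.06. How they were summarized, background-corrected and normalized is not given in the sources used here. The medians of the 6 columns lay between 5.01 and 5.11, and no scaling was added. Of 41345 probe sets, 23521 named 1 gene in the platform annotation, 1814 named several and 16010 none. Single-symbol probe sets of a gene were averaged. Collagens had 47 such probe sets, with 2 for Col1a2, Col5a1 and Col6a1, and all 44 symbols matched RefSeq by gene number. 1 collagen probe set that named several genes was left out.

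Genes whose highest array reached the median of all values were used. The 7 comparisons were differences of 2 arrays, counted at 2-fold. For all 13652 genes, limma 3.58.1 in R 4.3.3 fitted medium plus treatment (lmFit, eBayes with trend, two-sided), with Benjamini-Hochberg adjustment at 0.05. It was also run on simulated data with independent noise and treatment effects equal in both media. That run therefore did not cover treatment effects that differ between media. Alternatives were array scaling, probe set choice, the floor, a 1.5-fold threshold, eBayes without trend, another class boundary and leaving out each array. Members and gene lists were chosen with earlier results of these data known. Levels on all 6 arrays were given for Col1a1, Col1a2, Col3a1, Col6a1 and Col6a2 and for up to 6 members per class above the floor with the largest range. Other collagens past 2-fold could be named, and in each related list members past 2-fold or up to 4 with the largest differences. P4hb, Crtap and Ppib, called in the fit but outside that rule, were chosen after their values were seen.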

Additional observations from a re-analysis of the deposited data

Results flagged for a closer look

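Some differences between 2 arrays had opposite signs in the groups compared, with 1 array each, so none of these contrasts was tested. For Col6a3 the BTZ difference was -1.79 in growth medium and 0.06 in differentiation medium, 1.85 apart, and the latter was -0.03 under quantile normalization. Read the other way, the medium difference of Col6a3 was -1.47 untreated and 0.39 with BTZ, the same 1.85 apart. For Col6a2 the medium difference was 0.93 untreated and -0.37 with BTZ, a contrast of -1.30. For Col1a2 it was -0.36 untreated and 0.80 with BTZ, a contrast of 1.16.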

How the results depend on the processing

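No collagen difference past 2-fold and no collagen called in the fit changed sign under any alternative run. Some small differences and class medians did. With no floor, the medians for medium changed sign for type VI with TNF-α (0.52 to -0.33) and with BTZ (0.12 to -0.07). Those for type IV did so untreated (0.34 to -0.07) and with BTZ (0.15 to -0.01). The other class boundary put the type IV medians, untreated and with BTZ, just under 0. Quantile normalization took Col4a2 with TNF-α in differentiation medium from 0.05 to -0.01, Col6a3 with BTZ in that medium from 0.06 to -0.03, and Col6a1 between media with BTZ from 0.01 to just under 0. Moving the threshold from 2-fold to 1.5-fold changed the counts of collagens past it to 10 for medium in untreated cells, 6 for medium with BTZ, 11 for TNF-α in growth medium and 7 for TNF-α in differentiation medium, of 36 each. Of all genes, 21.3%, 13.0%, 9.93% and 9.54% passed it in the same order, so the counts for medium lie near the share of all genes. With BTZ in growth medium 13 of 36 collagens passed 1.5-fold, 11 lower and 2 higher, against 28.4% of all genes. With BTZ in differentiation medium 9 of 36 passed it, all lower, a share under the 33.4% of all genes. Over 7 comparisons, 38 of 42 recomputed counts past the threshold lay within 1.5 times the reported count. In the limma fit, a floor at the 75th percentile gave 4 collagens called for medium. Leaving out 1 array at a time gave 0 to 10 collagens called for medium and 0 to 6 for TNF-α, where 1 residual degree of freedom is left. For BTZ it gave 8 without either TNF-α array, where the BTZ effects are fixed to those of the full fit. The BTZ count was 0 without either untreated array, where 0 genes of any kind were called. Without a BTZ array the BTZ effect rests on the other BTZ array alone. Of 120 recomputed fit values of single collagens, 96 kept their side of the threshold and 24 lost it. Of 126 recomputed class medians 15 moved by more than the spread of the fit's residual; with the brightest probe set per gene the fibrillar BTZ median in growth medium was -1.01.

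Scaling the arrays to one median moved a collagen difference by at most 0.06, and quantile normalization by at most 0.19. The first put Col3a1 with TNF-α in differentiation medium inside 2-fold, and the second put Col1a1 with TNF-α in growth medium past it. Neither moved the median of all genes by more than 0.1. Quantile normalization, and the brightest probe set per gene, each added Col5a1 to the collagens that fell with BTZ. No paired analysis was possible because each group has 1 array and every label carries the same replicate number.

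With 1 array per group no difference of 2 arrays can be set against a replicate, the residual of the fit holds both array noise and any treatment-by-medium difference, and 8 collagens were too dim to be used.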
